A study of Rattus norvegicus with 12 samples.

Results

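The comparison described here sets INS-1E cells that were preconditioned with a low dose of IL-1β and then challenged with cytokines (IL-1βlow + CYT) against untreated cells. INS-1E is a clonal rat insulinoma line used as a β-cell model. The members were taken from the library titles, 3 libraries of IL-1βlow + CYT and 3 of untreated cells, so 6 of the 12 bulk RNA-seq libraries of the series. Preconditioning was IL-1β at 10 pg/ml for 72 h, with fresh cytokine each day in the same medium. After renewal of the medium, the challenge (CYT) was IL-1β at 100 pg/ml together with IFN-γ at 5 ng/ml for 16 h. Untreated cells received neither, and the labels do not say whether their medium was renewed on the same schedule. All cells were of 1 line without a genetic change, and the labels call the libraries of a group biological replicates. The 3 libraries with CYT alone and the 3 with IL-1βlow alone were used to place each residual change. The question was what still differed from resting cells after the challenge, although the cells had been preconditioned.

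IL-1β acts through MyD88 and the IRAK kinases to free NF-κB from its inhibitor IκBα. NF-κB then induces chemokines, cytokines and its own inhibitors. IFN-γ acts through JAK kinases to induce IRF1 and, through it, the genes of antigen presentation and antiviral defence. In β-cells both signals together also induce the inducible nitric oxide synthase, and nitric oxide sets off endoplasmic reticulum stress and lowers the expression of genes on which insulin secretion depends.

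The libraries held 15812640 to 17835111 counts in untreated cells and 16648591 to 20246806 in IL-1βlow + CYT cells. In all, 14324 genes with a CPM above 1 in at least 2 libraries were tested. CPM is a library's counts scaled to a common total, by the raw library totals for this filter and by TMM for the values given. Within a group, the chi-square of 2 libraries' counts was 7.11 to 27.5 times its degrees of freedom, and each library was counted as 1 sample. The ribosomal RNA gene Rn45s took 6.89% to 10.3% of the counts of untreated libraries and 9.96% to 11.1% of those of IL-1βlow + CYT libraries. The 8 β-cell markers summed to 33114 to 39464 CPM in untreated and 15688 to 20234 CPM in IL-1βlow + CYT libraries. Most of this sum was Ins1 and Ins2 (20655 and 7465 CPM in untreated replicate 1), so it mainly follows the insulin genes. Of the 8 markers, 3 were called lower and 5 were not called, and 2 had a positive sign. The leukocyte markers Ptprc and Itgam had 0 counts in all 12 libraries, and the fibroblast marker Dcn likewise. The 8 leukocyte markers summed to 1.1 to 1.78 CPM in untreated libraries and 4.62 to 5.77 CPM in IL-1βlow + CYT libraries. Most of the added level came from Adgre1, a macrophage receptor gene that overlaps another gene. The 4 endothelial markers summed to 3.78 to 5.44 CPM and 6.63 to 9.10 CPM, mostly Vwf. The 5 fibroblast markers summed to 12.6 to 16.4 CPM and 9.5 to 11.9 CPM, mostly Pdgfra. In bulk RNA, fewer cells of a type and less RNA per cell cannot be told apart.

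Between IL-1βlow + CYT and untreated cells, 858 genes were called, 5.99% of those tested, with an adjusted p under 0.01 in edgeR's quasi-likelihood test (Benjamini-Hochberg adjustment) and a change of more than 2-fold. Of these, 551 (3.85%) were higher and 307 (2.14%) lower. The 2 directions differed in size. A fitted change of more than 8-fold was seen in 143 genes that rose and in 14 that fell. In 71 of the 551 genes every untreated library held at most 3 counts, and their folds were taken as lower bounds against 3 counts. With these bounds, 120 genes rose by more than 8-fold and 40 by more than 32-fold. The median log2 fold change of all genes tested was -0.0050. All 858 genes had groups that did not overlap, as had 5342 of all genes tested.

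Each called gene was then placed against the other groups. Relative to CYT cells, 1785 genes (12.5%) were called over all genes tested, 937 (6.54%) higher and 848 (5.92%) lower in IL-1βlow + CYT cells. Among the 551 genes that rose over untreated cells, 159 (28.9%) had risen less than under CYT alone. Another 205 (37.2%) lay within 2-fold of CYT, meaning that the 95% interval of the difference lay inside 2-fold in both directions. A further 59 (10.7%) had risen more than under CYT, and 128 could not be placed. Among the 307 genes that fell, 48 (15.6%) had fallen less than under CYT, 122 (39.7%) lay within 2-fold of it and 23 (7.49%) had fallen further. Here and below, a larger or further change means a called difference from the other group in the same direction, whether or not the gene changed there. The median log2 change in CYT over untreated cells was 0.32 for the 59 genes and 0.10 for the 23. With an adjusted p under 0.05 and no fold minimum in either comparison, 1294 genes had changed less and 1009 lay within 2-fold. In that setting a gene that differed from CYT by less than 2-fold could leave the class within 2-fold, so its classes are defined otherwise. Genes within 2-fold could still differ from CYT cells by less than that. Part of this sorting follows from the shared libraries, since the same 3 IL-1βlow + CYT libraries entered both comparisons.

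**Figure D1:**
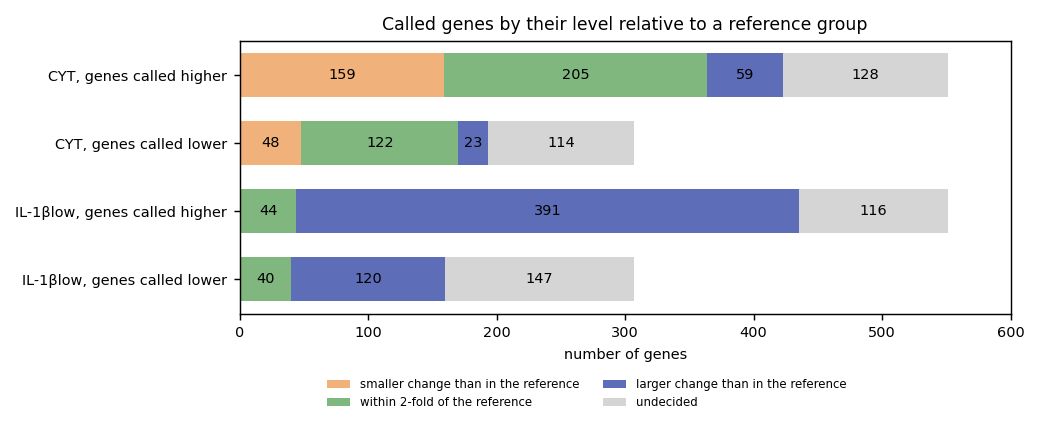
Number of genes called in IL-1βlow + CYT against untreated cells (x axis), sorted by their level relative to CYT cells (upper pair of bars) or IL-1βlow cells (lower pair). Of the 551 genes that rose, 205 lay within 2-fold of CYT and 159 had risen less, and 391 of them were also higher than in IL-1βlow cells.

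Relative to IL-1βlow cells, 556 genes (3.88%) were called over all genes tested, 418 (2.92%) higher and 138 (0.963%) lower. Of the genes that rose over untreated cells, 391 (71.0%) were also above IL-1βlow cells, and of those that fell, 120 (39.1%) were also below them. In 84 genes, 44 that rose and 40 that fell, the level lay within 2-fold of that after preconditioning alone. The count of 84 came to 55 when replicate 2 of IL-1βlow + CYT was left out. Of the 84, 23 that rose and 26 that fell also lay within 2-fold of CYT cells, so their level was not particular to preconditioning.

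The genes named next had a mean log2 CPM above 2 over the 6 libraries, besides their call. The largest rise was that of C3, the central component of complement. It lay at 0.0573, 0.118 and 0.0608 CPM in the untreated libraries and at 142, 135 and 189 CPM in the IL-1βlow + CYT libraries. The challenged libraries lay far above the untreated ones, at least 875-fold higher on average. Part of this rise was present without the challenge, since IL-1βlow cells held 9.19 CPM ± 1.90 (SD, n = 3). C3 remained below its CYT level of 341 CPM ± 25.4 (SD, n = 3), with a log2 difference of -1.14 ± 0.13 (standard error) and an adjusted p of 8.4e-06 in edgeR's quasi-likelihood test. Cd74, the invariant chain that guides MHC class II molecules, went from 0.573, 0.118 and 0.304 CPM to 246, 258 and 244 CPM. Its log2 fold change was 9.51 (standard error 0.20). IL-1βlow cells held 11.1 CPM ± 1.07 and CYT cells 395 CPM ± 31.1 of Cd74 (SD, n = 3). Its log2 difference from CYT cells was -0.66 (standard error 0.11, adjusted p = 1.5e-04 in edgeR's quasi-likelihood test), with an interval inside 2-fold.

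Ubd encodes FAT10, a ubiquitin-like protein induced by inflammatory cytokines. It lay at 4.12, 3.14 and 3.89 CPM in untreated libraries and at 185, 183 and 167 CPM in IL-1βlow + CYT libraries, 5.58 higher on the log2 scale (standard error 0.16). CYT cells held 167 CPM ± 14.3 (SD, n = 3), and the 95% interval of the difference lay inside 2-fold (log2 difference 0.10, standard error 0.12). Stap2, an adaptor protein of cytokine signalling, went from 0.401, 0.769 and 0.426 CPM to 122, 98.0 and 91.7 CPM and also lay within 2-fold of CYT. Mab21l3 showed the same placement, with 0.550 CPM ± 0.0563 in untreated, 54.0 CPM ± 4.58 in IL-1βlow + CYT and 43.8 CPM ± 7.68 in CYT cells (SD, n = 3). Col22a1, a collagen gene, was also within 2-fold of CYT, at 1.03, 1.24 and 1.28 CPM in untreated and 17.9, 24.6 and 16.9 CPM in IL-1βlow + CYT libraries.

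Under the same rule, the other large rises were Majin, Ltb, Htra3, Lrp4, Tmem176a, Tmem176b and Madcam1, with fitted log2 fold changes between 5.36 and 7.84. Ltb, which encodes lymphotoxin-β, a cytokine of the TNF family, rose from 0.344, 0.592 and 0.365 CPM to 112, 84.2 and 97.8 CPM. Madcam1, an adhesion molecule that binds lymphocytes, rose from 1.35 CPM ± 0.225 to 56.1 CPM ± 9.07 (SD, n = 3), against 34.3 CPM ± 4.01 in CYT cells. Lrp4, Tmem176a and Tmem176b overlap other genes in the annotation, and their values are uncertain because the strand setting of the counting is not stated.

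The falls were smaller. Oxtr, the oxytocin receptor, lay at 49.9, 61.4 and 47.2 CPM in untreated and at 5.17, 3.83 and 3.57 CPM in IL-1βlow + CYT libraries. The groups lay far apart, with a change of -3.66 in log2 (standard error 0.18) and an adjusted p of 1.9e-09 in edgeR's quasi-likelihood test. In CYT cells Oxtr was lower still, at 0.749 CPM ± 0.131 (SD, n = 3). Car8, a protein related to carbonic anhydrases that binds the IP3 receptor, lay at 243, 254 and 281 CPM and at 21.5, 24.8 and 23.8 CPM, within 2-fold of its CYT level of 26.2 CPM ± 7.24 (SD, n = 3).

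Stc1, which encodes the secreted protein stanniocalcin-1, fell from 507, 686 and 513 CPM to 126, 119 and 149 CPM, and CYT cells held 34.9 CPM ± 5.01 (SD, n = 3). Trpa1, a calcium-permeable cation channel, fell from 10.8 CPM ± 2.34 to 2.25 CPM ± 0.0104 (SD, n = 3). The remaining named falls were Cdh23, Tmem255a, Iqgap2, Fgl2, Fzd9, Ins2, Prss53 and Myo16, with log2 fold changes between -3.02 and -2.10. Camk4, a calcium-dependent kinase, and Nebl, an actin-binding protein, were among the named falls within 2-fold of CYT (log2 fold change -2.08 and -1.91). Of these genes, Camk4, Cdh23, Iqgap2, Fgl2, Ins2 and Prss53 overlap another gene, as does Car8, and are uncertain for that reason. The same holds for Col22a1, Birc3, Nfkbid, C1r, Derl3, Dnajc3, Atf3, Hmox1, Iapp, Rfx6, Cyp2s1, C2cd4a, Rnd1, Gpr139 and Entrep1, given further on.

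**Figure D2:**
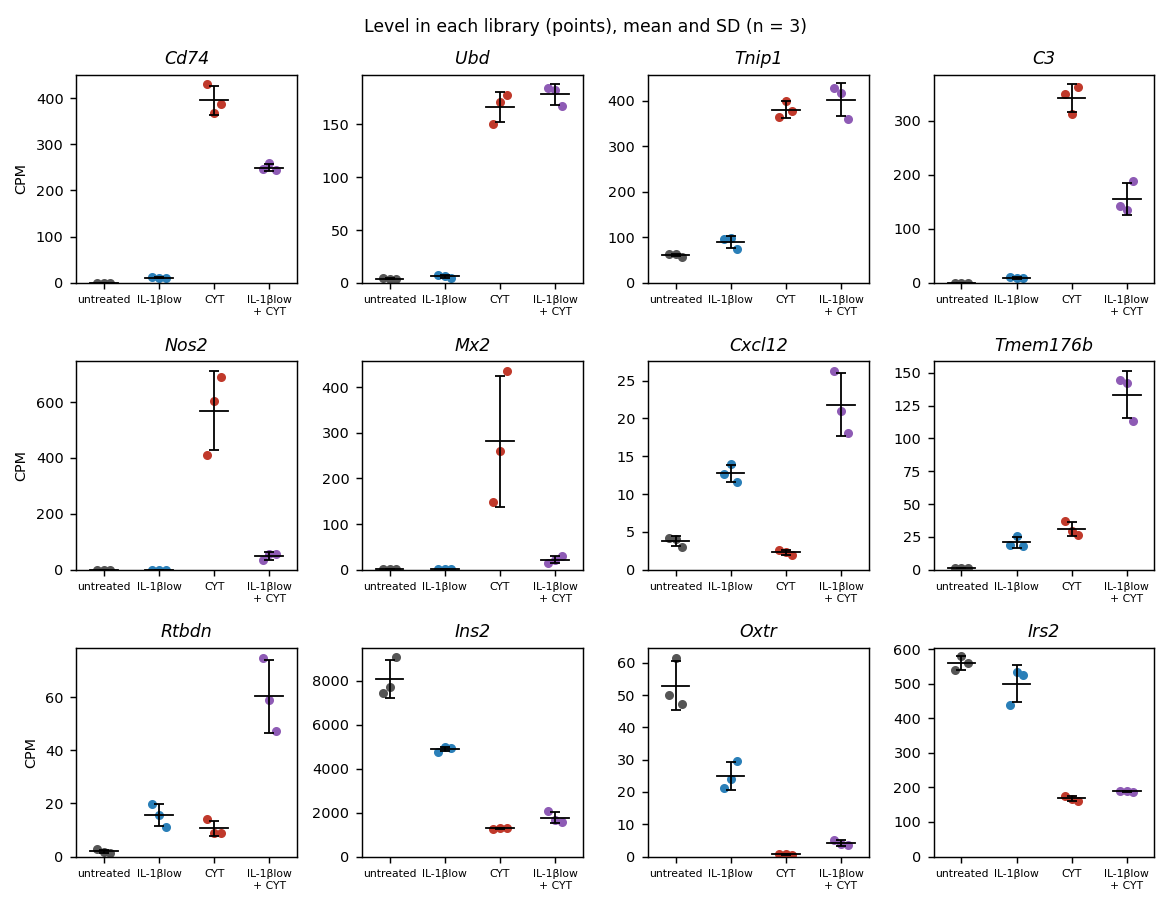
Level of 12 genes in CPM (y axis, from 0) in each of the 12 libraries (points), with the mean and SD of each group (n = 3). Ubd and Tnip1 are as high in IL-1βlow + CYT as in CYT cells, C3, Nos2 and Mx2 lie between untreated and CYT cells, Cxcl12, Tmem176b and Rtbdn are highest in IL-1βlow + CYT cells, and Ins2, Oxtr and Irs2 are low in both challenged groups.

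Genes were next described in 23 lists that cover 585 names, of which 482 were tested, 98 called higher and 28 lower. The counts of every list are to be read beside the shares over all genes tested, 3.85% called higher and 2.14% lower. Among the NF-κB subunits, inhibitors and feedback genes, 10 of the 20 tested rose and none fell, with a median log2 fold change of 0.98. Among the subunits, Nfkb2, the precursor of p52, went from 27, 24.3 and 27.6 CPM to 201, 186 and 178 CPM, and Relb, its partner, rose by 2.48 on the log2 scale (standard error 0.10). Nfkb1 rose by 1.07 (standard error 0.10), whereas Rela, the p65 subunit, lay at 94.3 CPM ± 1.25 and 116 CPM ± 10.0 (SD, n = 3) and was not called.

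Of the 6 inhibitors of the IκB family tested, 3 rose (Nfkbia, Nfkbiz and Nfkbid) and 3 were not called. Nfkbia, which encodes IκBα, lay at 22.9, 18.9 and 20.9 CPM in untreated libraries and at 116, 120.0 and 106 CPM in IL-1βlow + CYT libraries, with no overlap. Tnfaip3, the ubiquitin-editing enzyme A20, went from 10.7, 9.35 and 11.5 CPM to 63.0, 59.4 and 60.4 CPM. Its partner Tnip1 went from 63.0, 62.5 and 57.6 CPM to 429, 417 and 360.4 CPM, beside 381 CPM ± 18.5 (SD, n = 3) in CYT cells.

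Zc3h12a encodes regnase-1, a ribonuclease that degrades inflammatory transcripts. It lay at 5.33, 5.56 and 5.17 CPM in untreated libraries and at 86.5, 86.7 and 86.3 CPM in IL-1βlow + CYT libraries (log2 fold change 4.01, standard error 0.12). CYT cells held more, 138 CPM ± 11.9 (SD, n = 3), a log2 difference of -0.68 (adjusted p = 4.9e-05 in edgeR's quasi-likelihood test). Of the 10 genes that rose, 8 (Nfkb2, Relb, Nfkbia, Nfkbiz, Nfkbid, Tnfaip3, Tnip1 and Zc3h12a) lay within 2-fold of CYT, and Nfkb1 and Birc3 could not be placed. In the list as a whole 2 genes were called lower than in CYT cells and 1 higher. The list's median over untreated cells was nevertheless 1.92 in CYT cells and 0.98 in IL-1βlow + CYT cells, so genes within 2-fold could still be lower than under CYT. In the list of IL-1 receptor signalling, 0 of 15 genes were called over untreated cells by edgeR's quasi-likelihood test (median -0.13), 4 had an unadjusted p under 0.05, and DESeq2 and edgeR's exactTest called 0. Its receptor gene Il1r1 lay at 404 CPM ± 19.4 and 262 CPM ± 55.8 (SD, n = 3, log2 fold change -0.62, adjusted p = 0.018 in the quasi-likelihood test), beside 142 CPM ± 33.8 in CYT cells.

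The chemokines and cytokines had a median of 3.85 as fitted and 2.38 with genes at their bounds, since 10 of its 22 tested genes had at most 3 counts in every untreated library. Of the 22, 16 rose and 0 fell, against 3.85% of all genes tested that rose. The 8 CXC and CX3C chemokines tested were among them. One of these, Cxcl9, had 0 counts in the untreated libraries and 0.243, 0.298 and 0.238 CPM in IL-1βlow + CYT libraries, and its call was lost without any 1 of the 6 libraries (adjusted p 0.011 to 0.025 in the quasi-likelihood test) and with a replicate block (adjusted p = 0.010). In the whole list, 13 of the 16 calls were kept in every fit without 1 library. Cxcl10 and Cxcl11, which attract T cells through CXCR3, both overlap another gene. Cxcl10 lay at 9.11, 6.57 and 8.02 CPM in untreated and at 53.6, 40.4 and 41.9 CPM in IL-1βlow + CYT libraries, and Cxcl11 went from 3.87 CPM ± 0.615 to 64.8 CPM ± 7.91 (SD, n = 3).

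Cx3cl1 encodes fractalkine, a chemokine that also tethers leukocytes. It rose from 2.46, 5.15 and 2.80 CPM to 23.5, 34.6 and 32.3 CPM and stayed far below CYT cells (245 CPM ± 83.1, SD, n = 3), with a log2 difference of -3.02 (standard error 0.25, adjusted p = 4.2e-07). Csf1, the growth factor of macrophages, overlaps another gene. It rose from 32.0, 34.2 and 33.9 CPM to 462, 492 and 508 CPM, within 2-fold of CYT.

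Of the 22 genes tested, 10 were called lower than in CYT cells and 4 higher, against 5.92% and 6.54% of all genes. The higher ones included 3 of the 16 genes that rose over untreated cells (Tnf, Cxcl12 and Tnfsf10). Tnf, the gene of tumour necrosis factor, had at most 3 counts in each untreated library and 20.9, 14.3 and 17.0 CPM in IL-1βlow + CYT libraries, at least 98.0-fold higher. Its CYT level was 8.0 CPM ± 0.930 (SD, n = 3), so Tnf was higher by 1.11 on the log2 scale after preconditioning (adjusted p = 3.4e-04 in edgeR's quasi-likelihood test). Cxcl12, a chemokine known for retaining CXCR4-bearing cells, went from 4.24, 4.02 and 3.04 CPM to 26.3, 21.0 and 18.1 CPM, whereas CYT cells held 2.28 CPM ± 0.385 and IL-1βlow cells 12.7 CPM ± 1.14 (SD, n = 3). The log2 difference of Cxcl12 from CYT cells was 3.26 (standard error 0.19). Tnfsf10, the death ligand TRAIL, lay at 1.72, 0.947 and 1.64 CPM and at 6.44, 2.78 and 5.59 CPM, and its call over untreated cells was lost without any 1 untreated replicate or without replicate 1 of IL-1βlow + CYT (adjusted p 0.011 to 0.025 in the quasi-likelihood test).

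In the IFN-γ receptor, JAK-STAT and IRF list 2 of 26 genes rose (7.69%, against 3.85% of all genes) and 0 fell, with a median of 0.12. Irf1, a transcription factor induced by interferon, went from 34.9, 34.1 and 36.4 CPM to 132, 129 and 121 CPM, a log2 fold change of 1.86 (standard error 0.15), and CYT cells held 273 CPM ± 73.8 (SD, n = 3). Irf5 rose from 1.74 CPM ± 0.360 to 7.09 CPM ± 0.570 (SD, n = 3). Irf7, an amplifier of the interferon response, lay at 8.54 CPM ± 0.717 in untreated, 13.1 CPM ± 1.44 in IL-1βlow + CYT and 105 CPM ± 32.5 in CYT cells (SD, n = 3), and was not called over untreated cells.

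Targets of interferon nevertheless remained raised. Of the interferon-inducible GTPases, 9 of 10 rose and 0 fell (median 2.05 as fitted, 1.89 with bounds). Its families are given apart. Of the 6 guanylate-binding proteins tested, which attack the membranes of intracellular pathogens, 5 rose and 5 were called lower than in CYT cells. The call of Gbp1 over untreated cells was lost without any 1 library except replicate 1 of IL-1βlow + CYT (adjusted p 0.015 to 0.032 in the quasi-likelihood test), and that of Gbp7 without untreated replicate 2 or 3 (adjusted p = 0.015 and 0.013). Of the 4 immunity-related GTPases tested, which act on pathogen vacuoles, all rose, Igtp lay within 2-fold of CYT and the other 3 could not be placed. Irgm2, for example, went from 18.5, 13.4 and 16.1 CPM to 72.9, 50.1 and 61.4 CPM, against 34.4 CPM ± 5.19 in CYT cells (SD, n = 3). Irgm2, Irgm and Ifi47 overlap other genes, and genes of both families have close copies between which reads could be split.

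Among antiviral effectors and RNA sensors, 11 of 25 rose and 0 fell (median 1.26), and 15 of the 25 were called lower than in CYT cells. Mx2, a GTPase that blocks viruses, lay far below CYT cells. It lay at 0.630, 1.1 and 0.851 CPM in untreated, 13.7, 21.3 and 29.1 CPM in IL-1βlow + CYT and 281 CPM ± 144 (SD, n = 3) in CYT cells, and shares sequence with Mx1. Sting1, the adaptor of cytosolic DNA sensing, rose from 2.64, 2.31 and 2.92 CPM to 10.9, 8.40 and 11.9 CPM and was 2.29 lower on the log2 scale than in CYT cells (50.9 CPM ± 10.3).

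MHC class I peptide loading held 14 rises and 0 falls among 21 genes (median 1.54). All 5 immunoproteasome genes tested were among the rises, 4 of them within 2-fold of CYT. Psmb9, a catalytic subunit that shapes peptides for class I molecules, went from 13.6, 13.8 and 11.9 CPM to 85.7, 83.7 and 74.5 CPM. B2m, the light chain of class I molecules, went from 144, 168 and 144 CPM to 702, 757 and 823 CPM, and lay within 2-fold of CYT cells as well. Tap1, which carries peptides into the endoplasmic reticulum, rose by 1.73 (standard error 0.16) and lay 1.39 below CYT on the log2 scale (adjusted p = 4.2e-06). Heavy chain genes of the RT1 family have near-identical copies, and their single values are uncertain.

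The MHC class II list had the highest median, 7.57 as fitted and 5.60 with bounds, with 8 of 10 genes called higher and 0 lower. Ciita, the master regulator of class II genes, lay at 0, 0.118 and 0.243 CPM in untreated, at 4.56, 5.87 and 6.0 CPM in IL-1βlow + CYT and at 36 CPM ± 4.60 in CYT cells (SD, n = 3). RT1-Ba, a class II α chain, had at most 3 counts in each untreated library and 38.7, 57.7 and 54.1 CPM in IL-1βlow + CYT libraries, at least 283-fold higher, against 168 CPM ± 17.7 in CYT cells. Of the 10 genes, 7 were called lower than in CYT cells. Cd74 was lower too, at 249 CPM against 395 CPM in CYT cells, but missed the 2-fold minimum.

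Adhesion and checkpoint ligands counted 4 rises among 7 genes (median 2.73). Icam1, which binds leukocyte integrins, rose from 2.23, 2.72 and 2.31 CPM to 35.3, 26.5 and 27.3 CPM, with 135 CPM ± 43.0 in CYT cells (SD, n = 3). Cd40, a costimulatory receptor of the TNF family, had at most 3 counts in each untreated library and 18.6, 21.6 and 21.2 CPM after the challenge, at least 115-fold higher. In the complement list 4 of 11 genes rose (C3, C1r, C1s and Serping1, an inhibitor of C1), while the list's median was -0.03. The median of that list thus did not share the direction of its 4 called genes.

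**Figure D3:**
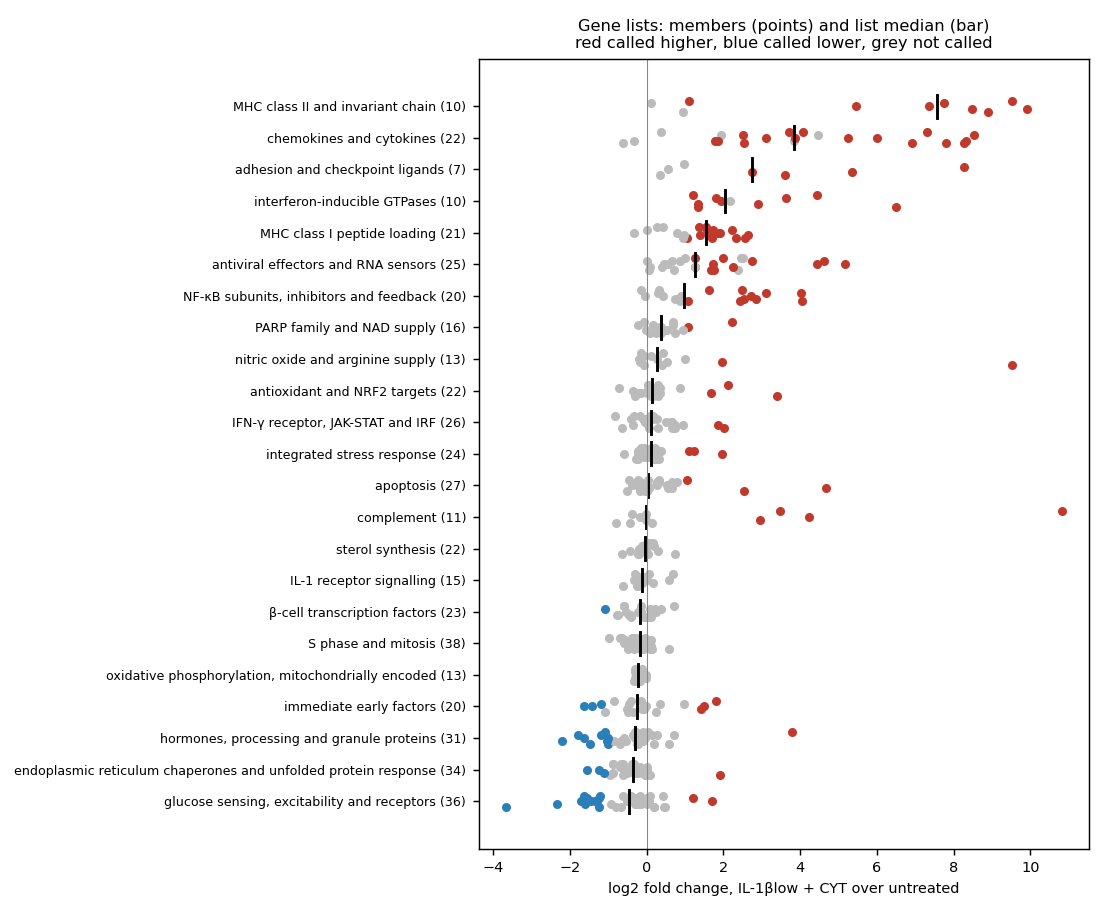
Log2 fold change of each tested member of 23 gene lists in IL-1βlow + CYT over untreated cells (x axis), with the list median as a black bar and the number of members tested in brackets. Red points were called higher, blue points lower and grey points neither, and for genes with at most 3 counts in every untreated library the fitted value depends on the prior count. The lists of NF-κB genes, chemokines, interferon-inducible GTPases, antiviral effectors, MHC and adhesion genes have medians from 0.98 to 7.57, and the IFN-γ receptor, JAK-STAT and IRF list has 0.12.

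The genes that rose together were also looked at in their promoters, the windows from 250 bases before to 50 bases after the start of each gene in RefSeq's annotation of GRCr8. That build is newer than mRatBN7.2, on which the counts were made, and genes were matched by symbol only. A window was found for 10925 of the 14324 genes tested, 415 of the 551 that rose and 226 of the 307 that fell. The motifs searched, on both strands, were the NF-κB consensus, an interferon-response motif with the letters GAAANNGAA (ISRE-type), and TTCNNNGAA (GAS, the interferon-γ-activated sequence). The motifs may overlap each other.

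The NF-κB consensus was found in 22.9% of the promoters of genes that rose (95 of 415), in 7.96% of those that fell, in 9.70% of all genes tested and in 7.60% of all 27457 promoters. Among the 98 genes with a fitted log2 fold change above 3 the share was 29.6%. Similar copies of RT1 class I genes, such as RT1-A1, RT1-A2 and RT1-CE10, were counted separately among the 95 promoters with a match. The ISRE-type motif was found in 14.9% of the promoters of genes that rose, 6.19% of those that fell, 7.23% of genes tested and 9.5% of all promoters. For GAS the shares were 9.64%, 4.87%, 6.76% and 8.68%. The share with an NF-κB match was 21.8% among genes that rose to within 2-fold of CYT and 22.8% among those that rose less than under CYT. These shares are descriptions, for which no test was made, and a match does not show that a factor binds there.

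**Figure D4:**
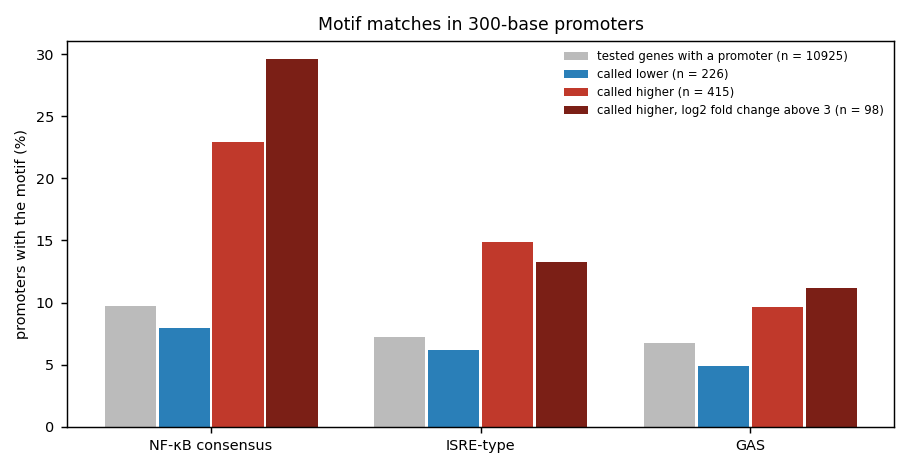
Percentage of promoters that hold each motif (y axis, from 0) for all tested genes with a promoter, genes called lower, genes called higher and genes called higher with a fitted log2 fold change above 3. Matches to the NF-κB consensus are in 22.9% of the genes that rose and 9.70% of all tested.

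The promoters of 4 genes that rose are shown as examples of these matches. Letters in capitals mark the matches, and each sequence runs from 5′ to 3′ on the strand of its gene. Irf1 (GRCr8 chr10:38417685-38417984, plus strand) holds a GAS match and an NF-κB match, each found on both strands, and had risen less than under CYT. Nfkb2 (chr1:255108124-255108423, plus strand) holds 1 NF-κB match and lay within 2-fold of CYT. Ubd (chr20:1392636-1392935, minus strand) holds 1 NF-κB match and lay within 2-fold of CYT. Cxcl10 (chr14:15988816-15989115, plus strand) holds an ISRE-type match and 3 NF-κB matches, of which 2 overlap.
Irf1: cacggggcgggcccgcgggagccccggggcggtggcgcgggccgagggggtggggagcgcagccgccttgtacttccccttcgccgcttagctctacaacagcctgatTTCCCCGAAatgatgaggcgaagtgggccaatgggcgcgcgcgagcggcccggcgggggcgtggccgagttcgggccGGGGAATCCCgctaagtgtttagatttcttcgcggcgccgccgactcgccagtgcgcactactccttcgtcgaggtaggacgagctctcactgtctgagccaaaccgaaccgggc
Nfkb2: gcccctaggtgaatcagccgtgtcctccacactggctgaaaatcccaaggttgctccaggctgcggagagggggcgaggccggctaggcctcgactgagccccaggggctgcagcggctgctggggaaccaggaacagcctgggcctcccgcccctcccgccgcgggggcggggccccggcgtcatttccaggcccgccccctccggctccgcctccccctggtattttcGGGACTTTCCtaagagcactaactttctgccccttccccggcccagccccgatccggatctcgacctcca
Ubd: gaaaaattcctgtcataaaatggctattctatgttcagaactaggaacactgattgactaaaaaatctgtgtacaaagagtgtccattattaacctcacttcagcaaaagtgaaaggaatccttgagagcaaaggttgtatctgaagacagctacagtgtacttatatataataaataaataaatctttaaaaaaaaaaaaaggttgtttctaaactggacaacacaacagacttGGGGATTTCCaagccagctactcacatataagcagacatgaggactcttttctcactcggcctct
Cxcl10: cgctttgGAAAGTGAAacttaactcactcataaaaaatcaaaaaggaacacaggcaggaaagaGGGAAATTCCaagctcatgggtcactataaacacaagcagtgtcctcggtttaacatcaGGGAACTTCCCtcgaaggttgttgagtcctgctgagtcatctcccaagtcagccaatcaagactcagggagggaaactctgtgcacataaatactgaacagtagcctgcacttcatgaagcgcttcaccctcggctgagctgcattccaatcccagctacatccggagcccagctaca

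The nitric oxide and stress lists moved little as a whole. Among genes of nitric oxide and arginine supply 2 of 13 rose, Nos2 and Ass1. Nos2, the inducible nitric oxide synthase, had at most 3 counts in each untreated library and 33.0, 55.7 and 57.8 CPM in IL-1βlow + CYT libraries, at least 275-fold higher, beside 569 CPM ± 142 (SD, n = 3) in CYT cells. Ass1, which supplies its substrate arginine, went from 19, 15.0 and 20.9 CPM to 70.4, 62.5 and 79.6 CPM. Both overlap another gene, and both were called lower than in CYT cells, by 3.54 and 2.21 on the log2 scale.

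In the antioxidant list 3 of 22 genes rose (Sod2, Mt1 and Mt2A). Sod2, the mitochondrial superoxide dismutase and a target of NF-κB, went from 109, 108 and 99.8 CPM to 307, 313 and 386 CPM. Hmox1, heme oxygenase-1, lay at 22.4 CPM ± 6.49 and 40.6 CPM ± 3.52 (SD, n = 3) and was not called, while CYT cells held 209 CPM ± 35.2. Mt2A was close to its detection limit, and its call was lost without any 1 of 4 libraries (replicate 2 of IL-1βlow + CYT and each untreated replicate, adjusted p 0.020 to 0.057 in the quasi-likelihood test).

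The integrated stress response, in which phosphorylated eIF2α raises ATF4 and CHOP, held 3 rises among 24 genes (12.5%, against 3.85% of all genes, median 0.12), and 20 of the 24 were called lower than in CYT cells, against 5.92% of all genes. Ddit3, which encodes CHOP, lay at 12.1, 12.3 and 14.7 CPM in untreated and 19, 31.3 and 33.7 CPM in IL-1βlow + CYT libraries, against 299 CPM ± 29.9 (SD, n = 3) in CYT cells. Its log2 fold change of 1.11 fell to 0.96, under the 2-fold minimum, without replicate 3 of IL-1βlow + CYT. Trib3, a pseudokinase induced by CHOP, lay at 2.12, 3.43 and 4.01 CPM and at 5.11, 16.7 and 15.0 CPM, with replicate 1 of IL-1βlow + CYT close to the untreated range. Chac1, which degrades glutathione, rose by 1.24 (standard error 0.18). Atf4 lay at 156, 176 and 174 CPM and at 169, 204 and 199 CPM, groups that overlapped, with 699 CPM ± 27.5 in CYT cells. Atf3 likewise overlapped, at 2.87 CPM ± 0.785 and 2.74 CPM ± 0.332 (SD, n = 3), with 65.2 CPM ± 8.31 in CYT cells.

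Chaperones of the endoplasmic reticulum leaned the other way. Of 34 genes of the unfolded protein response, 1 rose and 3 fell (median -0.37), and 5 had a positive sign. Hspa5, the chaperone BiP, lay at 1444, 1660.0 and 1805 CPM in untreated and at 899, 855 and 918 CPM in IL-1βlow + CYT libraries. These groups did not overlap, and with a log2 fold change of -0.88 and a standard error of 0.11 (adjusted p = 3.0e-05 in edgeR's quasi-likelihood test) Hspa5 missed the 2-fold minimum. Derl3, which takes misfolded proteins out of the endoplasmic reticulum, fell from 22.9, 27.2 and 31.7 CPM to 9.79, 9.10 and 9.03 CPM, within 2-fold of its CYT level of 9.11 CPM ± 0.528 (SD, n = 3). The other falls were Sdf2l1 and Dnajc3, and the rise was Atp2a3, a calcium pump of the endoplasmic reticulum. Dnajc3 came to -0.995 without replicate 2 of IL-1βlow + CYT, just short of the 2-fold minimum, and its call was lost.

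**Figure D5:**
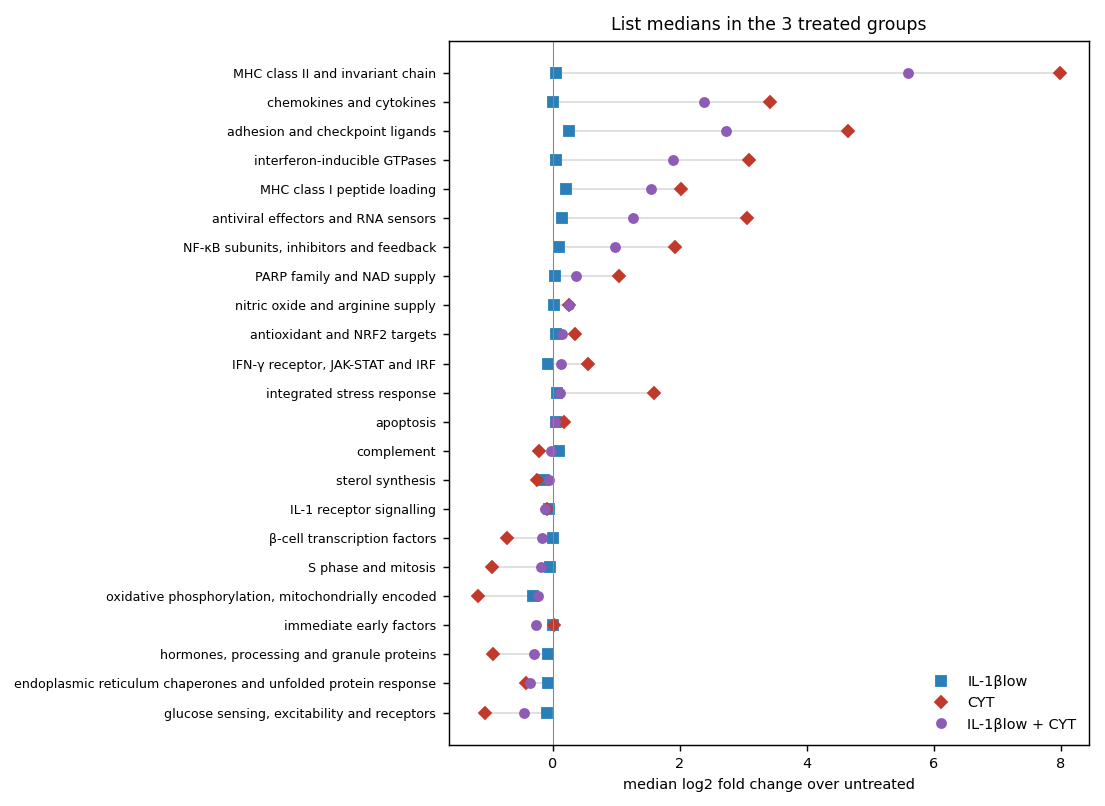
Median log2 fold change over untreated cells (x axis) of 23 gene lists in IL-1βlow, CYT and IL-1βlow + CYT cells, with genes at or under 3 counts per library set to that level. The integrated stress response has a median of 1.6 in CYT and 0.12 in IL-1βlow + CYT cells, while MHC class I has 2.02 and 1.54, and all 3 comparisons share the untreated libraries.

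Of 23 β-cell transcription factors, only Nkx6-1 was called, and it fell. That is 4.35% of the list, near the 5.99% of all genes tested, so the count does not set the list apart. Nkx6-1, which maintains β-cell identity, lay at 28.9, 39.8 and 33.4 CPM and at 15.9, 17.5 and 14.2 CPM (log2 fold change -1.10, standard error 0.19). Its change came to -0.99 without replicate 2 of untreated cells. Pdx1, an activator of the insulin genes, lay at 269, 262 and 266 CPM in untreated and 289, 277 and 224 CPM in IL-1βlow + CYT libraries, which overlapped, with 103 CPM ± 27.4 (SD, n = 3) in CYT cells. Mafa, another activator of the insulin genes, lay at 857, 932 and 882 CPM and at 602, 531 and 461 CPM. These groups did not overlap, and the log2 fold change of -0.75 (adjusted p = 1.3e-04) missed the 2-fold minimum. Rfx6 lay at 74.4 CPM ± 3.57 in untreated and 121 CPM ± 9.09 in IL-1βlow + CYT cells (SD, n = 3), 0.70 higher on the log2 scale and thus not called.

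Hormones, processing enzymes and granule proteins counted 9 falls and 1 rise among 31 genes (median -0.30), against 2.14% of all genes tested that fell. In every fit without 1 library 5 of the 9 falls were kept, and the rise was not. Rats have 2 insulin genes. Ins2 lay at 7465, 7737 and 9089 CPM in untreated and at 2061, 1650.3 and 1582 CPM in IL-1βlow + CYT libraries. Its log2 fold change was -2.20 (standard error 0.11, adjusted p = 3.7e-09 in edgeR's quasi-likelihood test), within 2-fold of CYT cells, which held 1295 CPM ± 23.6 (SD, n = 3). IL-1βlow cells held 4897 CPM ± 107 of it. Ins1 lay at 20655, 25565 and 25763 CPM and at 13277, 12070.2 and 10118 CPM, a log2 fold change of -1.02 (standard error 0.14). Without untreated replicate 2 or 3 or replicate 3 of IL-1βlow + CYT, the fall of Ins1 was -0.99, -0.97 and -0.92 and no longer reached 2-fold. Ins2 overlaps another gene, and the 2 insulin genes are close copies, so reads could be split between them.

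Among the processing enzymes Pcsk1, the convertase that cuts proinsulin, went from 125, 164 and 147 CPM to 43.4, 55.6 and 56.0 CPM, well above the 12.7 CPM ± 1.85 (SD, n = 3) of CYT cells. Pam, which amidates peptide hormones, went from 672, 946 and 811 CPM to 348, 351 and 354 CPM and overlaps another gene. Rab27a, a GTPase of granule docking, fell by 1.64 on the log2 scale (standard error 0.13), to within 2-fold of CYT. Npy, neuropeptide Y, lay at 92.0, 101 and 101 CPM and at 32.7, 26.4 and 25.9 CPM, also within 2-fold of CYT. Iapp, the amyloid polypeptide of β-cells, overlapped between the groups at 2832 CPM ± 334 and 2595 CPM ± 485 (SD, n = 3).

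Receptors and excitability genes had the lowest median of the 23 lists, -0.46, with 12 falls and 2 rises among 36 genes. Besides Oxtr, the falls included Glp1r, the receptor of the incretin GLP-1, from 105, 102 and 106 CPM to 42.6, 42.2 and 47.2 CPM, within 2-fold of CYT. Irs2, which relays insulin and IGF-1 signals, went from 540.4, 582 and 561 CPM to 189, 190.5 and 187 CPM, also within 2-fold of CYT (169 CPM ± 7.34, SD, n = 3). Both sets of values were tight and far apart.

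Of the 12 falls, 8 were kept in every fit without 1 library. Adra2a, the adrenergic receptor that restrains insulin secretion, lay at 98.4, 104 and 107 CPM in untreated, at 49.4, 41.1 and 30.5 CPM in IL-1βlow + CYT and at 8.69 CPM ± 3.06 (SD, n = 3) in CYT cells. Kcnn1, a calcium-activated potassium channel that overlaps another gene, went from 17.2, 16.5 and 14.0 CPM to 6.08, 5.27 and 4.34 CPM. It was low in IL-1βlow cells (6.10 CPM ± 0.837) but not in CYT cells (15.5 CPM ± 2.43). The rises were Gcgr, the glucagon receptor, from 7.39, 11.4 and 7.48 CPM to 23.4, 36.3 and 25.1 CPM, and Drd2, a dopamine receptor, by 1.20 (standard error 0.20). Slc2a2, the glucose transporter GLUT2, lay at 434 CPM ± 51.3 and 596 CPM ± 103 (SD, n = 3) and was not called (adjusted p = 0.033).

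Among apoptosis genes 3 of 27 rose and 0 fell (median 0.04). Fas, a death receptor that overlaps another gene, went from 3.15, 3.37 and 3.28 CPM to 19.4, 20.7 and 17.2 CPM, against 36.6 CPM ± 7.57 (SD, n = 3) in CYT cells. Casp4, an inflammatory caspase, rose from at most 3 counts in each untreated library to 1.16, 1.09 and 2.79 CPM, at least 9.48-fold. Bid, which links death receptors to mitochondria, rose by 1.05 (standard error 0.11), and by 0.96 without replicate 2 of IL-1βlow + CYT, under the 2-fold minimum.

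Of 38 genes of S phase and mitosis, 0 were called over untreated cells by edgeR's quasi-likelihood test (median -0.19), 13 had an unadjusted p under 0.05, all with a negative sign, and 11 were called higher and 1 lower than in CYT cells, against 6.54% and 5.92% of all genes. Top2a, a topoisomerase of dividing cells, lay at 245, 269.9 and 272 CPM and at 147, 162 and 215 CPM, groups that did not overlap, with a log2 fold change of -0.59 (adjusted p = 0.0045). Of 22 genes of sterol synthesis 0 were called (median -0.05, 3 with an unadjusted p under 0.05), and of 13 mitochondrially encoded genes also 0 (median -0.23, 0 with an unadjusted p under 0.05). DESeq2 and edgeR's exactTest called 0 genes in these 3 lists too. In the 18 lists without a fall, 30 of 342 members had a negative sign with an unadjusted p under 0.05, and both other tests called 0 of them lower. In the PARP and NAD list 2 of 16 rose, among them Parp14, from 25.5 CPM ± 1.94 to 119.6 CPM ± 11.4 (SD, n = 3).

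Immediate early factors counted 3 rises (Junb, Maff and Ier3) and 3 falls (Fosl2, Nr4a1 and Nr4a2) among 20 genes. Junb, a subunit of AP-1, went from 15.1, 16.6 and 14.2 CPM to 50.4, 53.0 and 55.8 CPM. Fosl2, another AP-1 subunit, went the other way, from 21.5, 26.8 and 23.0 CPM to 6.69, 9.35 and 10.3 CPM. Since CYT cells held 26.2 CPM ± 3.00 and IL-1βlow cells 27.3 CPM ± 7.72 of Fosl2 (SD, n = 3), its low level was found in IL-1βlow + CYT cells alone among the 4 groups. It was 1.57 lower on the log2 scale than in CYT cells (adjusted p = 2.5e-05) and 1.63 lower than in IL-1βlow cells, both called in edgeR's quasi-likelihood test. The call of Nr4a1 was lost without untreated replicate 2 (log2 fold change -1.36, adjusted p = 0.013).

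Among the 59 genes called higher than both untreated and CYT cells, those named by the same rule were Clec2g, Cxcl12, St8sia2, Rtbdn, Tmem176b and C2cd4a. They are given in order of the difference from CYT. Rtbdn and Tmem176b were also called higher in CYT than in untreated cells. Clec2g, Cxcl12, St8sia2 and C2cd4a had negative log2 changes there (-1.34, -0.73, -1.41 and -0.32), of which only that of St8sia2 was called. Rtbdn, retbindin, a riboflavin-binding protein, went from 2.69, 1.89 and 1.46 CPM to 74.8, 58.9 and 47.4 CPM, above both 10.6 CPM ± 2.97 in CYT and 15.6 CPM ± 4.30 in IL-1βlow cells (SD, n = 3). Tmem176b, a membrane protein, went from 1.55, 1.42 and 1.40 CPM to 145, 142 and 113 CPM, with 31.0 CPM ± 5.39 in CYT and 20.7 CPM ± 4.26 in IL-1βlow cells. In both genes the level after both treatments exceeded that after either one in every library. St8sia2, which builds polysialic acid, lay at 50.2 CPM ± 11.6 in IL-1βlow + CYT and 51.6 CPM ± 12.9 in IL-1βlow cells, within 2-fold of each other, beside 22.0 CPM ± 5.58 in untreated and 8.29 CPM ± 2.37 in CYT cells (SD, n = 3).

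Of these 6 calls, 3 were lost when single libraries were left out. The call of Clec2g over untreated cells was lost without replicate 1 of IL-1βlow + CYT or untreated replicate 2 or 3 (log2 fold change 1.95, 2.03 and 2.08, adjusted p = 0.012, 0.018 and 0.016 in the quasi-likelihood test). That of St8sia2 was lost without replicate 1 or 2 of IL-1βlow + CYT or untreated replicate 2 or 3 (adjusted p 0.011 to 0.017), and that of C2cd4a without replicate 1 of IL-1βlow + CYT or any 1 untreated replicate (adjusted p 0.012 to 0.033).

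Among the 23 genes called lower than both untreated and CYT cells, those named were Myo7b, Cyp2s1, Fosl2, Kcnn1, Cdh23 and Reep6. Of these, only Cdh23 was also called lower in CYT than in untreated cells (log2 change -1.69), and Myo7b was called higher there (1.16). Myo7b, a myosin of microvilli that overlaps another gene, lay at 16.5, 22.9 and 16.0 CPM in untreated and 7.54, 8.75 and 6.83 CPM in IL-1βlow + CYT libraries, whereas CYT cells held 41.4 CPM ± 7.25 (SD, n = 3). The difference from CYT cells was -2.42 on the log2 scale (adjusted p = 1.8e-07). Reep6, a protein of the endoplasmic reticulum membrane, fell by 1.19 (standard error 0.19) and lay at 56.7 CPM in CYT cells, close to the 52.0 CPM of untreated cells.

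Among the 84 genes within 2-fold of IL-1βlow cells, the named rises were Mmd2, Rnd1, Alpl, Gpr139, Entrep1 and Blnk and the named falls Kcnn1, Sct, Padi2, Slc38a3, Thy1 and Myo15b. Alpl, tissue-nonspecific alkaline phosphatase, lay at 8.0 CPM ± 0.687 in untreated, 15.7 CPM ± 0.571 in IL-1βlow and 24.6 CPM ± 0.262 in IL-1βlow + CYT cells (SD, n = 3). CYT cells held more of Alpl, 29.8 CPM ± 4.23. Mmd2 lay at 2.88 CPM ± 0.333 in untreated, 7.60 CPM ± 0.663 in IL-1βlow and 10.0 CPM ± 1.16 in IL-1βlow + CYT cells, and CYT cells held 3.54 CPM ± 1.51. Sct, the gene of secretin, lay at 16.9, 13.2 and 16.4 CPM in untreated and 7.24, 3.13 and 6.0 CPM in IL-1βlow + CYT libraries. It was about as low in IL-1βlow cells (6.78 CPM ± 1.15) as in CYT cells (4.95 CPM ± 1.35). Thy1, a surface glycoprotein, fell from 151, 149 and 162 CPM to 71.4, 57.1 and 59.4 CPM, with 98.8 CPM ± 2.01 in IL-1βlow and 98.5 CPM ± 13.0 in CYT cells. Alpl, Gpr139, Entrep1 and Thy1 still differed from IL-1βlow cells by less than 2-fold (adjusted p = 0.0014, 3.8e-04, 0.0010 and 4.5e-04 in edgeR's quasi-likelihood test). For the 44 rises, the median log2 change was 0.60 in IL-1βlow over untreated cells and 0.55 in IL-1βlow + CYT over IL-1βlow cells. For the 40 falls these medians were -0.63 and -0.51. The call of Slc38a3 was lost without replicate 2 or 3 of IL-1βlow + CYT or untreated replicate 1 or 3 (adjusted p 0.016 to 0.032 in the quasi-likelihood test).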

How the data were processed

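INS-1E cells gave 12 bulk RNA-seq libraries in 4 groups. Libraries were made by the authors with a TruSeq kit. Their reads passed through FastQC and rfastp before alignment with Rsubread on mRatBN7.2, and featureCounts assigned them to genes. What was deposited is 1 raw count for each gene symbol and library, not normalized. The strand setting of the counting is not given in the sources used here, so genes that overlap another gene in the RefSeq annotation of GRCr8 (370 of 836 called genes matched by symbol) were treated as uncertain.

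Genes with a CPM above 1 in at least 2 of 12 libraries were kept (14324 of 34034 symbols, 99.9% of counts) and scaled by TMM. All 12 libraries entered 1 fit of edgeR's quasi-likelihood model (R 4.3.3, edgeR 4.0.16, limma 3.58.1), with 8 residual degrees of freedom. Genes were called at a Benjamini-Hochberg adjusted p under 0.01 with a log2 fold change above 1 or below -1. A gene lay within 2-fold of another group where it was not called against it and the 95% interval of the log2 difference was inside -1 to 1. Folds against at most 3 counts in every untreated library are lower bounds against 3 counts per library, and counting error alone underlies them. Promoters of GRCr8 were taken from RefSeq. On simulated counts for 14031 genes, 198 of 200 changed genes were recovered and 0 unchanged genes were called. The changes were of 1.5 on the log2 scale, in genes with a mean CPM well above the filter, and counts were drawn from the fitted dispersions. The simulation thus does not cover genes near the floor or changes close to 2-fold.

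Genes were named by a fixed rule, the 12 largest rises and falls over untreated cells, and the 6 largest in each direction among genes that changed further than under CYT or lay within 2-fold of CYT or of IL-1βlow, each with a mean log2 CPM above 2 and the same direction in all 3 same-numbered pairs. Called members of the gene lists, and genes that define a list, were also named. The members, lists and rules were chosen with earlier results of these data known. The labels call the libraries biological replicates but do not say that they came from separate passages, so p-values measure the spread between these libraries. Alternatives were RLE size factors, DESeq2 1.42.0, edgeR's exactTest and glmTreat, other filters on low counts, the 6 libraries alone, a replicate block, calls at an adjusted p under 0.05 whatever the fold, Rn45s left out, and each library left out in turn.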

Additional observations from a re-analysis of the deposited data

How the results depend on the processing

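No gene called in IL-1βlow + CYT against untreated cells changed sign under any alternative. The 858 calls came to 748 to 997 when 1 library was left out, and to 869 with RLE size factors (855 of them shared with the 858), 905 with DESeq2 (849 shared), 972 with exactTest (858 shared), 1069 without a filter (837 shared), 785 with the 6 libraries alone (772 shared) and 863 without Rn45s (856 shared). With glmTreat, which tests against the 2-fold minimum itself, 353 genes were called, 288 higher and 65 lower. Of these, 51 had changed less than under CYT, 12 further and 139 lay within 2-fold of CYT, and 221 had changed further than in IL-1βlow cells and 3 lay within 2-fold of them. With at least 10 counts in every library, 635 genes were called, 130 of which had changed less and 54 further than under CYT. That filter removed most MHC class II genes and took their list's median to 0.93. With an adjusted p under 0.05 and no fold minimum, 3124 genes were called, 1751 higher and 1373 lower. Of these, 1294 had changed less than under CYT, 624 further and 1009 lay within 2-fold. Against IL-1βlow cells, 1637 had changed further and 1244 lay within 2-fold. The fold minimum was dropped from these comparisons too, so genes with small differences left the class within 2-fold, and the order of the classes cannot be compared. The count within 2-fold of IL-1βlow cells ranged from 55 to 92 when 1 library was left out. Of 165 called genes that the naming rule ranked or a list held, calls were kept in 2450 of 2597 values under the alternatives and lost in 147, of which 66 were with glmTreat. Of the 126 list members called, 104 were called in every fit without 1 library. Among the list medians 343 moved by less than the spread between pairs and 41 by more. exactTest gives no interval, and the 6 libraries alone give no comparison with CYT or IL-1βlow cells.

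Adding the replicate number to the model as a block gave 949 calls, 855 of them shared with the 858, and 117 called genes lay within 2-fold of IL-1βlow cells. The deviations of same-numbered libraries of both groups correlated at -0.0163, 0.157 and -0.168. With 3 libraries in each group, these values cannot settle whether same-numbered libraries were made together, and the labels do not say so. Depth limits genes with at most 3 counts in the untreated libraries, where only a lower bound of the fold is known.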
